A study of Mus musculus with 8 samples.

Results

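The genes described here carry fatty acid oxidation and ketone body formation in the liver, together with genes of the fasting response that the nuclear receptor PPARα is known to drive. They were chosen by name: the rows of the gene count table whose GRCm38 symbol is one of 43 listed symbols were taken. Measured levels were not part of this rule, but earlier results of these data were known when the symbols were listed. All 43 symbols were found among 46078 gene identifiers, and all 43 passed the filter on low counts that left 13856 genes to be tested. The members fall into 10 roles, from the receptor *Ppara* through fatty acid uptake, the carnitine shuttle, mitochondrial and peroxisomal β-oxidation and ω-oxidation to thioesterases, ketone bodies and secreted factors.

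PPARα is a fatty acid-activated receptor that is abundant in hepatocytes. During a fast, fatty acids released from adipose tissue reach the liver, PPARα bound to its partner RXR raises transcription of the genes that import and oxidize them, and the acetyl-CoA formed is turned into ketone bodies and exported. RBFOX2 is an RNA-binding protein that controls alternative splicing. The comparison asked whether the mRNA levels of this programme differ in fasted livers whose hepatocytes lack RBFOX2.

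Livers of 4 LWT and 4 LΔ*Rbfox2* mice were compared, with 1 library per liver. Both genotypes carry *Rbfox2* alleles flanked by loxP sites, and the LΔ*Rbfox2* mice also carry a Cre recombinase under the albumin promoter, which is active in hepatocytes, so the other cells of the liver are not targeted. The labels call the groups wild-type and Rbfox2 knockout, give Chow diet and 12 weeks on it for both, and describe the livers as taken from fasted mice, with 16 h of fasting in the series description. The mice were 8 weeks old when assigned to a diet. By the study's methods they were male unless stated otherwise, and stayed on the diets for longer than the labels give. Poly(A) RNA of whole liver was sequenced, so the values below are averages over all cells of the tissue.

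Total counts ranged from 37482458 to 56177588 per liver. The *Mup* genes, which encode abundant secreted urinary proteins, took between 21.4% and 43.6% of the counts. The libraries of LΔ*Rbfox2* livers 3 and 4 stood apart, with normalization factors (TMM, a scaling for composition) of 0.724 and 0.776 where the other 6 livers had 1.02 to 1.14. On the principal axis of log2 CPM (counts scaled to library size), which held 54.1% of the variance, these livers lay at 46.7 and 56.02, and LWT livers 1 and 4 at -59.4 and -54.6. *Rbfox2* itself was at 10.4 to 18.3 CPM in LWT and 2.24 to 6.09 CPM in LΔ*Rbfox2* livers, with a log2 fold change of -1.82 (adjusted *P* = 0.504 from edgeR). Hepatocyte markers summed to between 49800 and 69500 CPM in LWT and between 54100 and 74000 CPM in LΔ*Rbfox2* livers, and 9 of the 10 listed were found. Most of each sum was *Alb*, at 32480 to 55320 CPM over the livers. The log2 fold changes of single hepatocyte markers ran from -0.40 (*Apob*) to 0.43 (*Asgr1*). Fewer cells of a type and less RNA per cell cannot be told apart in such bulk samples.

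None of the 43 genes passed the test between genotypes, and the ranges of the genotypes overlapped for each of them. With edgeR's quasi-likelihood test and Benjamini–Hochberg adjustment over all 13856 genes, 0 members and 0.0% of all genes tested had an adjusted *P* of at most 0.05. For the members it ran from 0.557 to 0.993. At an unadjusted *P* under 0.05 there were 0 members in either direction, where 9.79% of all genes lay under it, 7.95% higher and 1.83% lower in LΔ*Rbfox2* livers. DESeq2 and limma-voom also gave 0 members at an unadjusted *P* under 0.05, where 11.3% and 7.07% of all genes lay under it, and 0 members at an adjusted *P* of at most 0.05, where 0.0836% and 0.0% of all genes passed. The ranges did not overlap for 0 members and for 2.28% of all genes tested. The means were higher in LΔ*Rbfox2* livers for 17 members and lower for 26. The median log2 fold change of the members was -0.068, beside -0.015 over all genes tested, and 3 members (*Fabp1*, *Acot3* and *Pdk4*) had log2 fold changes larger than 0.5 in size.

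**Figure D1:**
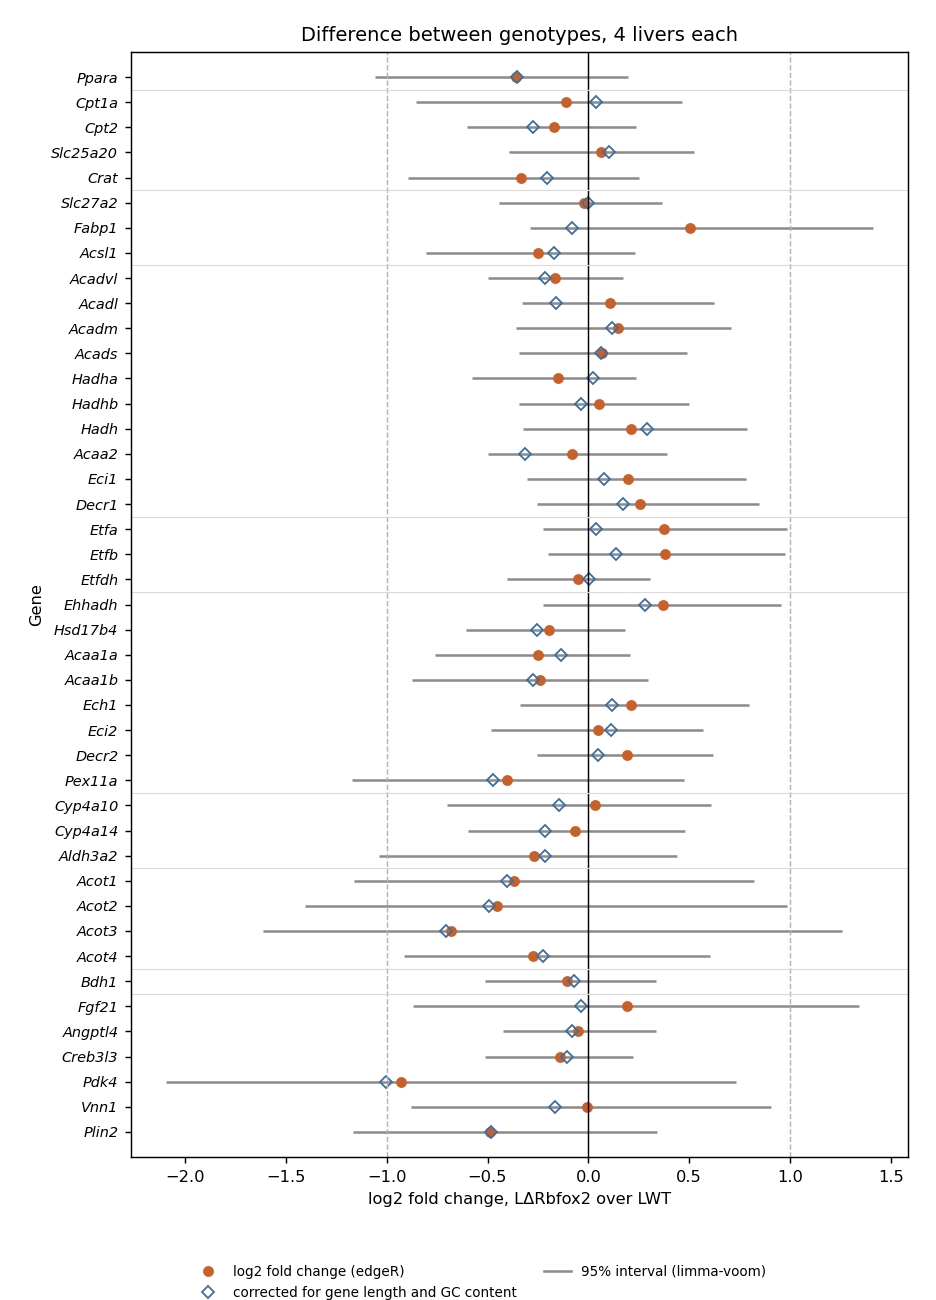
Log2 fold change (LΔ*Rbfox2* over LWT) of each of the 43 genes on the horizontal axis, grouped by role. Filled circles are the edgeR values, grey lines the 95% intervals from limma-voom over 4 livers of each genotype, open diamonds the values after a correction for gene length and GC content, and dashed lines mark a 2-fold difference. All 43 intervals hold 0, and 33 lie inside the dashed lines.

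The intervals show how large a difference these livers leave room for. Standard errors and 95% intervals are those of limma-voom on the same livers, so an interval is not centred on the edgeR value beside it. All 43 intervals held 0. They stayed within a 2-fold difference in both directions for 33 members and reached beyond it for 10, on the lower side for 8 and on the higher side for 3, with *Acot3* on both. Standard errors ran from 0.151 for *Acadvl* to 0.645 for *Acot3*. Exact two-sided permutation tests on log2 CPM gave *P* values of 0.114 or more for every member, where 0.0286 is the smallest that 4 livers against 4 allow.

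The spread within a genotype was wide and shared by many members. The highest LWT liver was over 2-fold above the lowest for 15 members, and the same held among LΔ*Rbfox2* livers for 12. Among LWT livers, 36 of the 43 members were lowest in liver 1 and 31 were highest in liver 2. Among LΔ*Rbfox2* livers, 22 were lowest in liver 1 and 20 highest in liver 2. Over all 8 livers, LWT liver 1 was the lowest for 23 members and LWT liver 2 the highest for 19. These counts were not made over all genes tested, so they do not set the members apart from other genes. The median deviation of the members from their mean over the 8 livers was -0.37 log2 CPM in LWT liver 1 and 0.37 in LWT liver 2. The median SD within a genotype was 0.379 log2 CPM for the members and 0.386 for all genes tested. As a share of all counts, the members took 1.65%, 2.82%, 2.72% and 2.15% of the counts in LWT livers 1 to 4 and 1.97%, 2.96%, 1.51% and 1.68% in LΔ*Rbfox2* livers 1 to 4, where the *Mup* share was 43.6% in LΔ*Rbfox2* liver 3, 37.5% in LΔ*Rbfox2* liver 4 and 37.1% in LWT liver 1. The part of the *Mup* share in these values was not tested.

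**Figure D2:**
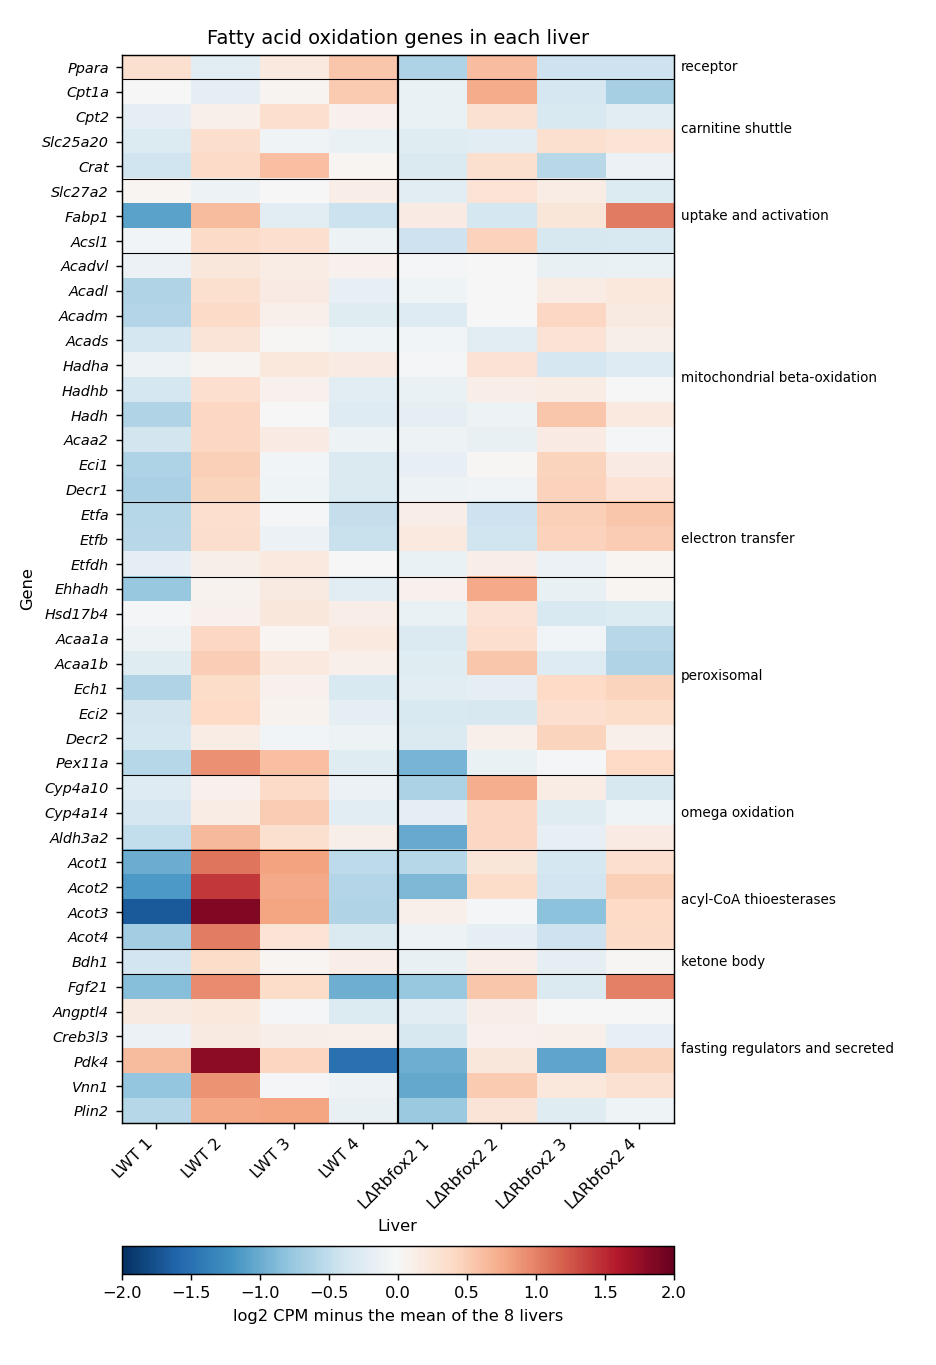
Deviation of log2 CPM from the mean of the 8 livers, with genes in rows ordered by role and livers in columns, the black vertical line between the genotypes. Red is above and blue below the mean. LWT liver 1 is the lowest of the 8 livers for 23 of the 43 genes and LWT liver 2 the highest for 19.

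In the values that follow, livers are listed in the order of replicates 1 to 4, and fold changes are log2 values from edgeR (LΔ*Rbfox2* over LWT) with its adjusted *P*.

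*Ppara* (chr15:85734983-85802819 on GRCm38, plus strand) encodes the receptor. *Ppara* was at 82.7, 57.1, 76.6 and 97.5 CPM in LWT livers and at 43.3, 102, 49.7 and 49.9 CPM in LΔ*Rbfox2* livers. LΔ*Rbfox2* liver 2 was the highest of all 8 livers and the other LΔ*Rbfox2* livers lay below every LWT liver. The log2 fold change of *Ppara* was -0.36 (95% interval -1.06 to 0.20, adjusted *P* = 0.615). Leaving out LΔ*Rbfox2* liver 2 gave -0.72 for *Ppara* (edgeR, adjusted *P* = 0.0945), with genotypes that no longer overlapped, and leaving out LΔ*Rbfox2* liver 1 or LWT liver 4 gave -0.22 and -0.24. Without LΔ*Rbfox2* liver 2 the genotypes did not overlap for 4 members, *Ppara*, *Acsl1*, *Hsd17b4* and *Acaa1b*, all lower, where 18.9% of all genes did not overlap, and 4 members had an unadjusted *P* under 0.05 (*Ppara*, *Acsl1* and *Acaa1b* lower, *Etfb* higher), where 24.8% of all genes lay under it.

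PPARα with RXR binds a repeat of the half-site AGGTCA with 1 base between the copies. The repeat AGGTCANAGGTCA was searched on both strands of the 250 bases before the RefSeq start of each gene (GRCm38.p6), counting a match where at most 2 of the 12 given bases differed. RefSeq promoters were matched for 35 of the 43 members, not for *Crat*, *Acaa2*, *Decr1*, *Hsd17b4*, *Cyp4a10*, *Cyp4a14*, *Angptl4* and *Vnn1*. A match was present for 5 of the 35 (14.3%), beside 3.72% of all 27025 symbols with a promoter. Those symbols were not limited to genes tested in these livers, as the members were, so the sets differ in kind. With 3 differing bases allowed, the shares were 34.3% and 23.7%. The stretches around these 5 matches are shown because they are the closest matches to the letters the receptor is known to bind, with flanks that stop at annotated exons. Each runs 5′ to 3′ on the strand of its gene, with the match in capitals, and all but that of *Creb3l3* read the repeat on the opposite strand.
Fabp1: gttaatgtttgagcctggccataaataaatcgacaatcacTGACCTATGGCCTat
Acot4: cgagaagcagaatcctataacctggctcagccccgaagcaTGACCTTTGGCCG
Creb3l3: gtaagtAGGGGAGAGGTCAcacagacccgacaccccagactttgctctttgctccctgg
Etfa: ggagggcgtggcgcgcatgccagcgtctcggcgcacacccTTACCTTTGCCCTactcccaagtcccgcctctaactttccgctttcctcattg
Plin2: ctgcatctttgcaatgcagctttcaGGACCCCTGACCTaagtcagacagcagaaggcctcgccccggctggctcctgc
The *Fabp1* stretch (chr6:71199772-71199826, plus strand) differs from the repeat at 1 base. The stretches of *Acot4* (chr12:84038326-84038378, plus strand), *Creb3l3* (chr10:81092748-81092806, minus strand), *Etfa* (chr9:55512268-55512360, minus strand) and *Plin2* (chr4:86670232-86670309, minus strand) differ at 2 bases. The *Creb3l3* match lies in an intron of the longer annotated gene and the others lie upstream of their genes (GENCODE M21). A match of letters is a description and not a measured binding site, and no match says only that these letters are not in the window. The genes with a match had log2 fold changes of 0.51 (*Fabp1*), -0.28 (*Acot4*), -0.14 (*Creb3l3*), 0.38 (*Etfa*) and -0.49 (*Plin2*), so their values lay on both sides of 0.

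Fatty acids enter the hepatocyte and are bound and activated by a small set of abundant proteins. *Slc27a2* encodes a very long-chain acyl-CoA synthetase that also takes part in uptake. *Slc27a2* was at 1281, 1161, 1230 and 1369 CPM in LWT livers and at 1063, 1496, 1380 and 1032 CPM in LΔ*Rbfox2* livers. The highest liver was LΔ*Rbfox2* liver 2 and the lowest LΔ*Rbfox2* liver 4, so the LΔ*Rbfox2* livers held both ends of the range. *Slc27a2* had a log2 fold change of -0.02 (95% interval -0.44 to 0.37, adjusted *P* = 0.966). *Fabp1*, the liver fatty acid-binding protein, had the highest level per length of the 43 genes, at 3277 CPM per kilobase of exon in LWT livers. *Fabp1* was at 955, 3089, 1717 and 1488 CPM in LWT livers and at 2237, 1572, 2363 and 4117 CPM in LΔ*Rbfox2* livers. LWT liver 1 was the lowest and LΔ*Rbfox2* liver 4 the highest, and LΔ*Rbfox2* livers 1 and 3 lay between LWT livers 2 and 3. *Fabp1* had a log2 fold change of 0.51 (95% interval -0.29 to 1.41, adjusted *P* = 0.601). Corrected for gene length and GC content it was -0.081, without LWT liver 2 it was 0.90 (adjusted *P* = 0.247 from edgeR), and without LΔ*Rbfox2* liver 4 or LWT liver 1 it was 0.185 and 0.268. *Acsl1*, the main long-chain acyl-CoA synthetase of liver, ranged from 903 to 1269 CPM in LWT and from 732 to 1338 CPM in LΔ*Rbfox2* livers, with a log2 fold change of -0.25 (95% interval -0.81 to 0.23, adjusted *P* = 0.657).

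*Cpt1a* encodes the outer-membrane carnitine palmitoyltransferase, the step that controls entry of long-chain fatty acids into mitochondria. *Cpt1a* was at 390.4, 344, 408 and 566 CPM in LWT livers and at 359, 661, 311 and 249 CPM in LΔ*Rbfox2* livers. LΔ*Rbfox2* liver 2 and LWT liver 4 were highest, as they were for *Ppara*, and LΔ*Rbfox2* livers 3 and 4 were lowest. *Cpt1a* had a log2 fold change of -0.11 (95% interval -0.85 to 0.46, adjusted *P* = 0.877), and 0.036 after the correction for gene length and GC content. The other members of the shuttle are *Cpt2*, the inner-membrane enzyme, *Slc25a20*, the carnitine–acylcarnitine carrier, and *Crat*, which acts on short chains. Their log2 fold changes were -0.17 for *Cpt2*, 0.065 for *Slc25a20* and -0.33 for *Crat*, with adjusted *P* from 0.602 upwards in this role.

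The 10 members of mitochondrial β-oxidation, which shorten fatty acids by cycles of dehydrogenation, hydration and cleavage, had log2 fold changes between -0.17 and 0.26 with a median of 0.087, 7 of them above 0. Without LΔ*Rbfox2* livers 3 and 4, the livers of low TMM factor, these 7 lay between -0.143 (*Acads*) and -0.0134 (*Hadhb*). *Hadha*, below 0 with all livers, was then at 0.0257. *Acadm*, the medium-chain acyl-CoA dehydrogenase, begins the cycle on medium chains. *Acadm* was at 301, 585, 482 and 383 CPM in LWT livers and at 375, 454, 597 and 511 CPM in LΔ*Rbfox2* livers. LWT liver 1 was lowest, LΔ*Rbfox2* liver 3 highest, and the genotypes overlapped over most of their ranges. *Acadm* had a log2 fold change of 0.15 (95% interval -0.36 to 0.71, adjusted *P* = 0.785). *Acadvl*, the very long-chain dehydrogenase, had the smallest spread of the 43 genes. *Acadvl* was at 273, 346, 328 and 314 CPM in LWT livers and at 293, 295, 267 and 269.5 CPM in LΔ*Rbfox2* livers. LWT liver 1 lay among the LΔ*Rbfox2* livers and the other LWT livers above them all. The log2 fold change of *Acadvl* was -0.17 (95% interval -0.50 to 0.17, adjusted *P* = 0.648), and without LWT liver 1 its genotypes did not overlap, the single such member there, where 3.85% of all genes did not overlap.

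*Hadha* encodes the α subunit of the trifunctional protein, which carries out the later steps on long chains. *Hadha* was at 270.2, 304, 337 and 327 CPM in LWT livers and at 284, 357, 231 and 244 CPM in LΔ*Rbfox2* livers. The LΔ*Rbfox2* livers held both the highest and the lowest value. *Hadha* had a log2 fold change of -0.15 (95% interval -0.58 to 0.24, adjusted *P* = 0.717), and its partner *Hadhb*, the β subunit, which lies beside it on chromosome 5, one of 0.055. After the correction for gene length and GC content these were 0.023 and -0.038. The log2 fold changes were 0.11 for *Acadl* and 0.066 for *Acads*, the long-chain and short-chain dehydrogenases, 0.21 for *Hadh*, the 3-hydroxyacyl-CoA dehydrogenase of shorter chains, and -0.082 for *Acaa2*, the thiolase. They were 0.20 for *Eci1* and 0.26 for *Decr1*, which handle unsaturated chains. In LWT livers 1 to 4 the median deviation of the 10 genes from their 8-liver mean was -0.48, 0.36, 0.094 and -0.20 log2 CPM, and in LΔ*Rbfox2* livers 1 to 4 it was -0.10, 3.8e-04, 0.23 and 0.15.

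Electrons from the acyl-CoA dehydrogenases pass to the electron transfer flavoprotein, the product of *Etfa* and *Etfb*, and on to ubiquinone through its oxidoreductase, the product of *Etfdh*. *Etfa* was at 181, 338, 264 and 194 CPM in LWT livers and at 296, 202, 374 and 394 CPM in LΔ*Rbfox2* livers. *Etfb* was at 168, 318, 229.8 and 182 CPM in LWT livers and at 284, 188, 344 and 353 CPM in LΔ*Rbfox2* livers. The livers took the same order for both genes, with LΔ*Rbfox2* liver 4, LΔ*Rbfox2* liver 3 and LWT liver 2 at the top and LWT liver 1 at the bottom. *Etfa* had a log2 fold change of 0.38 (95% interval -0.22 to 0.99, adjusted *P* = 0.584) and *Etfb* one of 0.38 (95% interval -0.20 to 0.98, adjusted *P* = 0.575). These were 0.039 and 0.14 after the correction for gene length and GC content, 0.229 and 0.237 without LWT liver 1, and 0.58 and 0.60 without LWT liver 2. Without LΔ*Rbfox2* livers 3 and 4, the livers of low TMM factor, *Etfa* was at -0.0026 and *Etfb* kept its direction. *Etfdh* was at 251, 309, 326 and 284 CPM in LWT livers and at 259.9, 315, 263 and 293 CPM in LΔ*Rbfox2* livers. Its ranges nearly coincided between the genotypes. *Etfdh* had a log2 fold change of -0.05 (95% interval -0.40 to 0.31, adjusted *P* = 0.898).

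**Figure D3:**
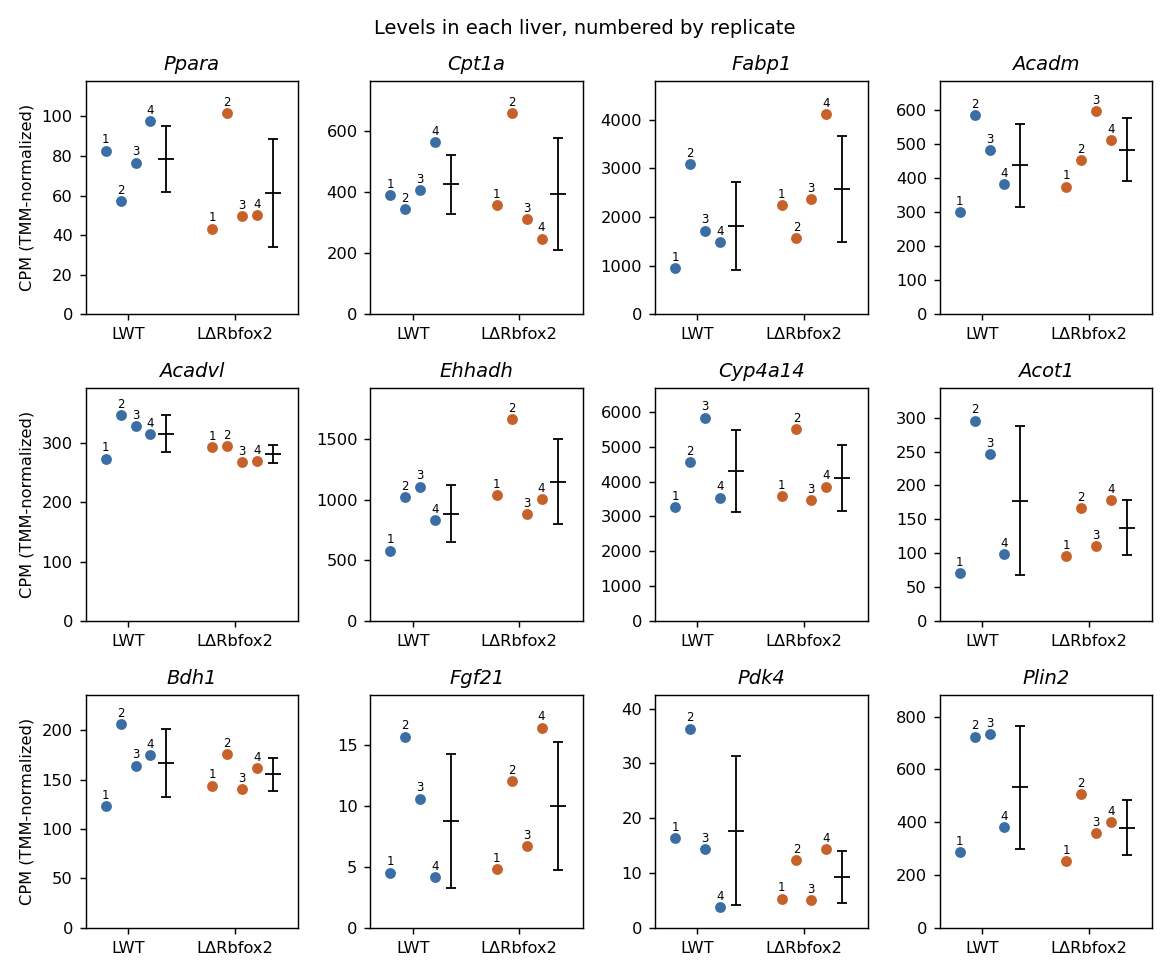
TMM-normalized CPM of 12 of the genes in each liver, each panel with its own axis from 0. Points are livers, numbered by replicate, and the black mark and bar beside them are the mean and SD of 4 livers. The points of the genotypes overlap in every panel, and single livers such as LΔ*Rbfox2* liver 2 for *Ppara* (102 CPM) lie far from the rest of their genotype.

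Peroxisomes oxidize very long and branched chains and the dicarboxylic acids made by ω-oxidation. *Ehhadh* encodes the bifunctional enzyme of this pathway, a classical PPARα target in rodents. *Ehhadh* was at 581, 1024, 1108 and 832 CPM in LWT livers and at 1038, 1661, 884 and 1003 CPM in LΔ*Rbfox2* livers. LΔ*Rbfox2* liver 2 was highest and LWT liver 1 lowest, and the other 6 livers lay close together. *Ehhadh* had a log2 fold change of 0.37 (95% interval -0.22 to 0.95, adjusted *P* = 0.585), which was 0.138 without LΔ*Rbfox2* liver 2 and 0.193 without LWT liver 1. *Acaa1b* encodes a peroxisomal thiolase, a close copy of *Acaa1a*, and reads may be shared between them. *Acaa1b* was at 888, 1472, 1199 and 1125 CPM in LWT livers and at 879.8, 1527, 877 and 685 CPM in LΔ*Rbfox2* livers. LΔ*Rbfox2* liver 2 was highest here too, next to LWT liver 2. *Acaa1b* had a log2 fold change of -0.24 (95% interval -0.88 to 0.30, adjusted *P* = 0.698), from -0.52 without LΔ*Rbfox2* liver 2 to -0.0954 without LΔ*Rbfox2* liver 4, and *Acaa1a* one of -0.25. The log2 fold changes of the others were -0.19 for *Hsd17b4*, the second bifunctional enzyme, 0.21 for *Ech1*, 0.047 for *Eci2* and 0.19 for *Decr2*, which act on double bonds, and -0.40 for *Pex11a*, which promotes peroxisome division. Of the 8 peroxisomal members, 4 lay above and 4 below 0, with a median of -0.073.

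ω-Oxidation begins with the cytochrome P450 enzymes of the Cyp4a family, whose mRNAs respond strongly to PPARα in mouse liver. *Cyp4a10* was at 2428, 3078, 3779 and 2662 CPM in LWT livers and at 1866, 4811, 3202 and 2328 CPM in LΔ*Rbfox2* livers. *Cyp4a14* was at 3268, 4557, 5836 and 3543 CPM in LWT livers and at 3588, 5503, 3467 and 3854 CPM in LΔ*Rbfox2* livers. LΔ*Rbfox2* liver 2 and LWT liver 3 held the highest values of both genes. The log2 fold change of *Cyp4a10* was 0.031 (95% interval -0.70 to 0.61, adjusted *P* = 0.967), and that of *Cyp4a14* -0.068 (95% interval -0.60 to 0.48, adjusted *P* = 0.911). Corrected for gene length and GC content, these log2 fold changes were -0.15 and -0.22. Per kilobase of exon these were the most abundant members after *Fabp1*, at 1654 CPM for *Cyp4a14* and 1416 CPM for *Cyp4a10* in LWT livers, and reads of the similar Cyp4a copies may be shared. *Aldh3a2*, the fatty aldehyde dehydrogenase, ranged from 283 to 619 CPM in LWT and from 197 to 526 CPM in LΔ*Rbfox2* livers, with a log2 fold change of -0.27.

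*Acot1* to *Acot4* encode acyl-CoA thioesterases, which release free fatty acids from their CoA esters in the cytosol (*Acot1*), mitochondria (*Acot2*) and peroxisomes (*Acot3* and *Acot4*). The 4 genes lie side by side on chromosome 12, and as close copies they can share reads. *Acot1* was at 70.6, 296, 246 and 98.3 CPM in LWT livers and at 95.2, 166, 110.5 and 178 CPM in LΔ*Rbfox2* livers. LWT livers 2 and 3 lay above every other liver, LWT liver 1 below every other, and the LΔ*Rbfox2* livers between. *Acot1* had a log2 fold change of -0.37 (95% interval -1.16 to 0.82, adjusted *P* = 0.708), and the others -0.45 (*Acot2*), -0.68 (*Acot3*) and -0.28 (*Acot4*). *Acot3* was at 10.2, 118, 56.4 and 21.7 CPM in LWT livers and at 35.2, 31.7, 18.6 and 42.98 CPM in LΔ*Rbfox2* livers. The highest LWT liver thus lay 11.5-fold above the lowest, the widest range among LWT livers of the 43 genes, against 2.31-fold among LΔ*Rbfox2* livers. Without LWT liver 2, *Acot1* had a log2 fold change of -0.00265 and *Acot3* one of 0.13, and without LWT liver 1 they were -0.66 and -1.05.

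The levels of the 4 thioesterases were correlated across the livers. These relations were chosen after the values were seen, 15 in all, so they are given as descriptions with no test. Over the 6 pairs of thioesterases, Pearson's r ran from 0.88 to 0.989 and Spearman's rho from 0.81 to 1.0 on log2 CPM (8 livers). Without the 2 livers farthest from the median of the first gene of each pair, r ran from 0.664 to 0.978. All values of a liver come from the same library, and whether the copies share reads was not tested. For *Ppara* and *Cpt1a*, r was 0.851 and rho 0.81, and without the 2 livers farthest from the median of *Ppara* r was 0.921. For *Ppara* and 8 other members (*Acadm*, *Ehhadh*, *Cyp4a10*, *Acot1*, *Pdk4*, *Angptl4*, *Fgf21* and *Vnn1*), r lay between -0.396 and 0.572 over the 8 livers and between -0.793 (*Acadm*) and -0.034 (*Cyp4a10*) without the same 2 livers, so these values changed with the livers included. The livers of low TMM factor, 2 of a single genotype, were too few for values of their own.

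**Figure D4:**
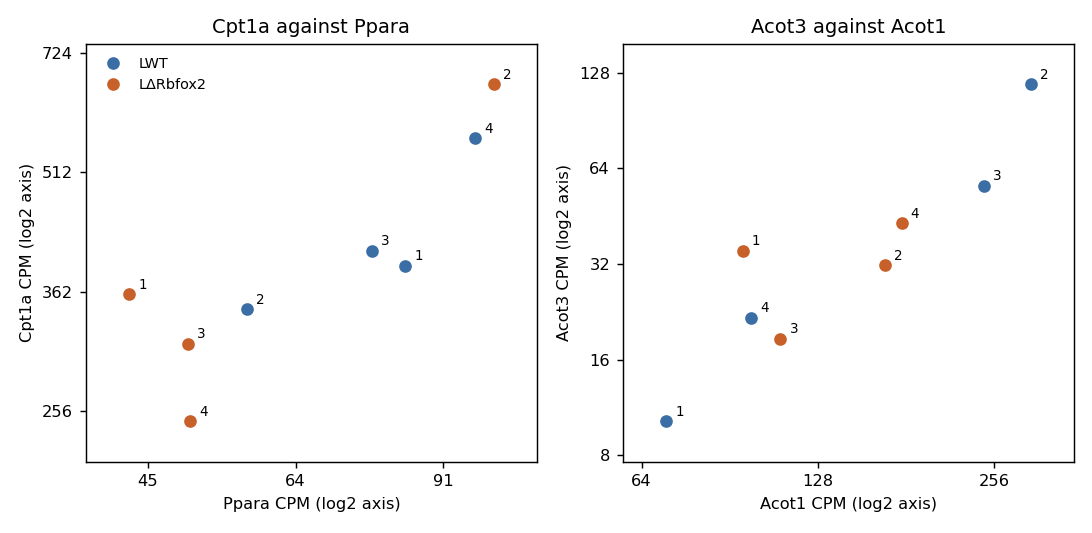
*Cpt1a* against *Ppara* (left) and *Acot3* against *Acot1* (right), in TMM-normalized CPM on log2 axes. Each point is a liver, numbered by replicate and coloured by genotype. Both pairs rise together across the 8 livers (Pearson's r = 0.851 and 0.91), and the genotypes are intermixed in the right panel.

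*Bdh1* encodes the mitochondrial 3-hydroxybutyrate dehydrogenase, which interconverts the main ketone bodies, and is the member that stands for ketone body formation here. *Bdh1* was at 123, 206, 164 and 175 CPM in LWT livers and at 144, 176, 140.1 and 162 CPM in LΔ*Rbfox2* livers. LWT livers 1 and 2 held the ends of the range and every LΔ*Rbfox2* liver lay between them. *Bdh1* had a log2 fold change of -0.10 (95% interval -0.51 to 0.34, adjusted *P* = 0.805).

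Of the secreted factors and regulators of fasting, *Fgf21* encodes a hormone released by the fasting liver. *Fgf21* was at 4.55, 15.7, 10.6 and 4.14 CPM in LWT livers and at 4.84, 12.1, 6.69 and 16.4 CPM in LΔ*Rbfox2* livers. LWT liver 2 and LΔ*Rbfox2* liver 4 were high and LWT livers 1 and 4 and LΔ*Rbfox2* liver 1 low, with a 3.79-fold range in LWT and a 3.40-fold range in LΔ*Rbfox2* livers. *Fgf21* had a log2 fold change of 0.19 (95% interval -0.87 to 1.34, adjusted *P* = 0.869), and -0.039 after the correction for gene length and GC content. *Angptl4* encodes an inhibitor of lipoprotein lipase. *Angptl4* was at 146, 149, 128 and 106 CPM in LWT livers and at 111, 142, 130.5 and 128 CPM in LΔ*Rbfox2* livers. All 8 livers lay between 106 and 149 CPM. *Angptl4* had a log2 fold change of -0.051 (95% interval -0.42 to 0.33, adjusted *P* = 0.901). *Creb3l3* encodes CREBH, a membrane-bound transcription factor that acts with PPARα. *Creb3l3* was at 222, 272, 261 and 257 CPM in LWT livers and at 192, 255, 258 and 215 CPM in LΔ*Rbfox2* livers. LΔ*Rbfox2* livers 1 and 4 were lowest and the rest overlapped. *Creb3l3* had a log2 fold change of -0.14 (95% interval -0.51 to 0.22, adjusted *P* = 0.709).

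*Pdk4* encodes the pyruvate dehydrogenase kinase that spares glucose during fasting. It had the lowest level per length of these genes in LΔ*Rbfox2* livers (2.65 CPM per kilobase of exon) and the smallest *P* of the 43. *Pdk4* was at 16.4, 36.4, 14.3 and 3.75 CPM in LWT livers and at 5.34, 12.4, 5.09 and 14.4 CPM in LΔ*Rbfox2* livers. LWT liver 2 was highest and LWT liver 4 lowest, so a single genotype held both ends of the range. *Pdk4* had a log2 fold change of -0.93 (95% interval -2.09 to 0.73, adjusted *P* = 0.557). Without LWT liver 2 it was -0.30 (adjusted *P* = 0.746 from edgeR), and without LWT liver 4 it was -1.27 (adjusted *P* = 0.899 from edgeR), where *Pdk4* was the one member at an unadjusted *P* under 0.05 and 3.59% of all genes lay under it. *Vnn1* encodes pantetheinase, a hepatic PPARα target. *Vnn1* was at 39.9, 127, 66.7 and 63.9 CPM in LWT livers and at 33.5, 98.7, 79.4 and 84.3 CPM in LΔ*Rbfox2* livers. LWT liver 2 was again highest, and LΔ*Rbfox2* liver 1 and LWT liver 1 lowest. *Vnn1* had a log2 fold change of -0.0064 (95% interval -0.88 to 0.91, adjusted *P* = 0.993).

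*Plin2* encodes the lipid droplet coat protein perilipin 2, whose mRNA follows the supply of fatty acids. *Plin2* was at 286, 724, 734 and 383 CPM in LWT livers and at 253, 507, 359 and 399 CPM in LΔ*Rbfox2* livers. LWT livers 2 and 3 lay above the other 6 livers, and LΔ*Rbfox2* liver 1 was lowest. *Plin2* had a log2 fold change of -0.49 (95% interval -1.17 to 0.34, adjusted *P* = 0.573). Without LWT liver 1 this was -0.71 (edgeR, adjusted *P* = 0.851), and *Plin2* was the one member at an unadjusted *P* under 0.05, where 4.31% of all genes lay under it. Without LWT liver 2 or LWT liver 3 the value of *Plin2* was -0.295 and -0.288. Without LWT liver 2 the members at an unadjusted *P* under 0.05 were *Fabp1* and *Etfb*, both higher in LΔ*Rbfox2* livers, where 17.9% of all genes lay under it.

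The median of the members changed sign with a single liver left out. When single livers were left out, the median log2 fold change of the 43 genes lay between -0.204 (without LWT liver 1) and 0.0515 (without LWT liver 2), while the median of all genes tested lay between -0.035 and 0.0042. No member passed an adjusted *P* of at most 0.05 with edgeR in any of these 8 comparisons. Scaling to library totals alone gave a median of -0.264 for the members, with 39 of 43 below 0, beside -0.227 for all genes. Both medians were thus lower than with TMM scaling. Without LΔ*Rbfox2* livers 3 and 4, the livers of low TMM factor, the median of the members was -0.0933 with 34 of 43 below 0, beside -0.0154 for all genes, and the smallest adjusted *P* of a member was 1.0 (edgeR). Library totals and this comparison were chosen after seeing the data.

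**Figure D5:**
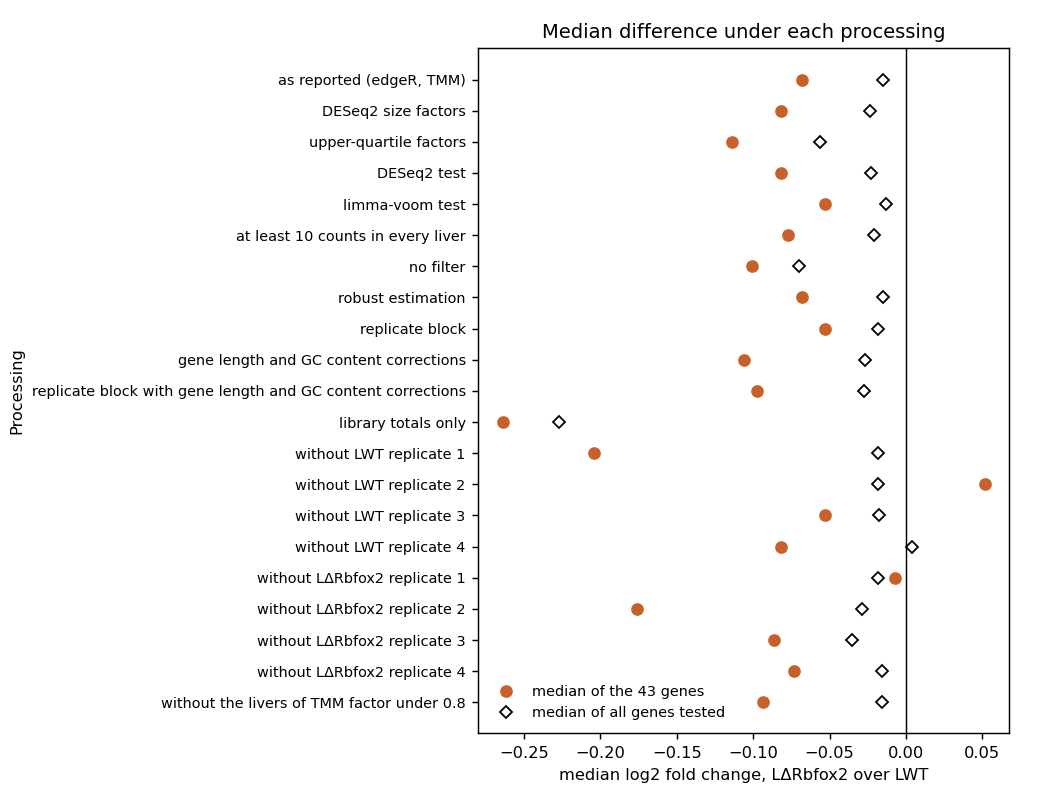
Median log2 fold change (LΔ*Rbfox2* over LWT) of the 43 genes (filled circles) and of all genes tested (open diamonds) on the horizontal axis under each processing, named at the left. Without LWT liver 2 the median of the 43 genes is 0.0515, above 0, and without LWT liver 1 it is -0.204.

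Beyond the 43 genes, 67 others of fatty acid handling were listed: cofactors of PPARα and further genes of uptake, oxidation, ketone body use and lipid droplets. Of these, 64 could be tested and 0 had an adjusted *P* of at most 0.05. At an unadjusted *P* under 0.05 there were 8 (12.5%), 4 higher and 4 lower in LΔ*Rbfox2* livers. Of all genes, 9.79% lay under it, 7.95% higher and 1.83% lower. The median log2 fold change of the 64 was -0.025. *Aacs* encodes acetoacetyl-CoA synthetase, which uses acetoacetate for lipid synthesis in the cytosol. *Aacs* was at 4.15, 8.12, 7.53 and 9.23 CPM in LWT livers and at 1.65, 4.06, 3.08 and 3.71 CPM in LΔ*Rbfox2* livers. Every LΔ*Rbfox2* liver lay below every LWT liver, the one such gene of the 64, where 2.28% of all genes tested did not overlap. The log2 fold change of *Aacs* was -1.22 (95% interval -1.99 to -0.48, adjusted *P* = 0.504). The exact two-sided permutation *P* was 0.0286, which ranges without overlap fix for 4 livers against 4, so it adds nothing to that separation. *Aacs* is named here because it had the smallest unadjusted *P* of the 64 genes (0.0038 from edgeR). Its counts were low, from 72 to 404 per liver. Its unadjusted *P* was under 0.05 in each of the 20 alternatives tried, and its adjusted *P* was above 0.05 in all of them.

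The other genes at an unadjusted *P* under 0.05 overlapped between genotypes. *Plin4*, a lipid droplet coat protein, ranged from 10.8 to 37.5 CPM in LWT and from 4.62 to 19.0 CPM in LΔ*Rbfox2* livers, with a log2 fold change of -1.25 (95% interval -2.38 to -0.12, adjusted *P* = 0.504). *Lpin2*, a phosphatidate phosphatase, ranged from 260.5 to 373 CPM and from 205 to 282 CPM in the same order (-0.46). *Slc25a42*, the mitochondrial carrier of coenzyme A, ranged from 52.8 to 95.8 CPM and from 33.2 to 70.3 CPM (-0.61). Thus a coat protein, a lipid phosphatase and a carrier had lower means in LΔ*Rbfox2* livers. *Acot13*, a thioesterase, ranged from 17.2 to 38.6 CPM in LWT and from 22.4 to 72.5 CPM in LΔ*Rbfox2* livers, with a log2 fold change of 0.94 (95% interval 0.091 to 1.71, adjusted *P* = 0.504). *Fabp2*, the intestinal-type fatty acid-binding protein, ranged from 50.1 to 152 CPM and from 94.1 to 232 CPM (0.88). The remaining genes, *Pex3* for peroxisome assembly and *Acot9*, a mitochondrial thioesterase, had log2 fold changes of 0.57 and 0.52. After the correction for gene length and GC content, 0 of the 64 were higher and 4 lower at an unadjusted *P* under 0.05, where 5.02% of all genes were higher and 2.66% lower. These 4 were *Aacs* and *Plin4* of the 8 above, and *Acsl3* and *Acox2*, an acyl-CoA synthetase and a peroxisomal oxidase, with corrected log2 fold changes of -0.50 and -0.39.

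Of the markers of other cell types, some macrophage and erythroid genes had an unadjusted *P* under 0.05. Of 8 Kupffer cell and macrophage markers, 3 (*Clec4f*, *Csf1r* and *Cd68*) had an unadjusted *P* under 0.05. All 3 were lower in LΔ*Rbfox2* livers, where 1.83% of all genes were lower under it. Of the rest, *Vsig4* (-0.26), *Cd5l* (-0.42) and *Adgre1* (-0.098) had log2 fold changes below 0, and *Marco* (0.48) and *Timd4* (0.077) above 0. The macrophage list summed to between 67.2 and 117 CPM in LWT and between 38.7 and 75.7 CPM in LΔ*Rbfox2* livers. Of 4 erythroid markers tested, 3 globin genes (*Hba-a1*, *Hbb-bs* and *Hbb-bt*) had an unadjusted *P* under 0.05. All 3 were higher in LΔ*Rbfox2* livers, where 7.95% of all genes were higher under it. Their log2 fold changes were 0.68, 1.38 and 1.27, and 0.36, 0.84 and 0.71 after the correction for gene length and GC content. *Alas2* had a log2 fold change of 0.21, and *Slc4a1* was not tested. The erythroid list of 5 summed to between 285 and 571 CPM in LWT and between 464 and 1300 CPM in LΔ*Rbfox2* livers. None of the markers tested had an adjusted *P* of at most 0.05. Adipocyte markers summed to at most 2.15 CPM in any liver, and *Lep* had 0 counts in all livers. The 7 endothelial, 7 stellate cell, 4 cholangiocyte and 1 lymphocyte markers tested held 0 at an unadjusted *P* under 0.05. The part of other cells in the members' values was not tested.

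Another limit is the annotation: 17 of the 43 genes are overlapped by another annotated gene, 6 on the same strand and 13 on the opposite strand, and the strand setting of the counting is not given in the sources used here, so reads in those overlaps are uncertain. The members' counts themselves were high, from 163 to 352446 per gene and liver.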

How the data were processed

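Per the labels, poly(A) RNA from livers of fasted mice was sequenced. The authors aligned 100-base paired reads to GRCm38 with TopHat2 (2.0.11) and counted them per gene with featureCounts (version and strand setting not given in the sources used here). They deposited whole-number counts without normalization, totalling 37482458 to 56177588 per liver. GENCODE M21 supplied the symbols, positions, lengths and base composition (45229 of 46078 identifiers).

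Counts were compared in R 4.3.3 with edgeR 4.0.16 (filterByExpr, minimum count 10, TMM, glmQLFit, glmQLFTest, genotype as the one term, Benjamini–Hochberg over 13856 genes). Errors came from limma-voom (limma 3.58.1). DESeq2 1.42.0, other scalings and filters, robust estimation, a block for the replicate number, leaving out each liver, and a lowess correction (span 0.3) of each library for GC content and exon length were alternatives. Log2 CPM used a prior count of 2. The labels do not tie livers to litters or cages, so *P* values measure the spread between these samples. No 2 libraries of a genotype were alike (chi-square per degree of freedom at least 106).

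The 43 members, the 67 other pathway genes, the marker lists and the motif were chosen with earlier results of these data known. Per-liver values are given for genes that head each role and for the 6 members of smallest *P*. Those of *Acot3* were added after they were seen, for its wide range among LWT livers. The relations between members were also chosen after their values were seen and carry no test. The HFD livers named in the series description, splicing and eiCLIP were not analysed here.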

Additional observations from a re-analysis of the deposited data

Results flagged for a closer look

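A liver was marked when it lay so far from the nearest liver of its genotype that the gap filled most of the genotype's range (Dixon's test at its 95% level). Of 86 groups of 4 livers examined over the 43 genes, 2 held such a liver, where chance alone marks about 1 in 20 groups, or 4.3 here. Both were LΔ*Rbfox2* liver 2. *Ppara* was at 102 CPM there, against 43.3 to 49.9 CPM in the other LΔ*Rbfox2* livers, and *Acsl1* was at 1340 CPM, against 732 to 787 CPM. The same liver lay at -35.9 on the principal axis of log2 CPM, where the other LΔ*Rbfox2* livers lay at 15.8 to 56.02, and it had the largest total count, 56177588. Its *Rbfox2* level, 6.09 CPM, was the highest of the LΔ*Rbfox2* livers, where the others had 2.24 to 4.61 CPM. The part of that position, total count or *Rbfox2* level in the *Ppara* and *Acsl1* values was not tested.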

How the results depend on the processing

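The 43 genes kept a count of 0 at an adjusted *P* of at most 0.05 in all 20 alternatives, and a count of 0 at an unadjusted *P* under 0.05 in all but those that left out a liver, which gave 0 to 2 higher and 0 to 3 lower members. The 2 higher came without LWT liver 2, where 17.9% of all genes lay under it. The 3 lower came without LΔ*Rbfox2* liver 2, where 24.8% of all genes lay under it. The other pathway genes also gave 0 past an adjusted *P* of 0.05 in each. The number of members whose genotypes did not overlap was 0 to 4 with each liver left out. The 4 came without LΔ*Rbfox2* liver 2, where 18.9% of all genes did not overlap. The median log2 fold change of the members lay between -0.204 and 0.0515, and that of the other pathway genes between -0.14 and 0.0322, with each liver left out. Library totals alone gave medians of -0.264 for the members and -0.263 for the other pathway genes, beside -0.227 for all genes.

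Of 516 values of single members under the 12 other alternatives, 463 kept their direction and 53, of 22 genes, reversed; the cause was not tested. With both the length and GC corrections, they were *Cpt1a* (0.0357), *Fabp1* (-0.0808), *Acadl* (-0.159), *Hadha* (0.023), *Hadhb* (-0.0378), *Etfdh* (0.00412), *Cyp4a10* (-0.146) and *Fgf21* (-0.0387). With library totals alone, they were *Slc25a20* (-0.21), *Acadl* (-0.139), *Acadm* (-0.123), *Acads* (-0.194), *Hadhb* (-0.176), *Hadh* (-0.0714), *Eci1* (-0.0689), *Decr1* (-0.0191), *Ech1* (-0.0757), *Eci2* (-0.242), *Decr2* (-0.0691), *Cyp4a10* (-0.161) and *Fgf21* (-0.0652). With limma-voom, they were *Cyp4a10* (-0.0475) and *Vnn1* (0.013). With the replicate block, they were *Cyp4a10* (-0.0447) and *Vnn1* (0.0102). With the replicate block and both corrections, they were *Cpt1a* (0.00226), *Fabp1* (-0.0436), *Acadl* (-0.154), *Hadha* (0.0447), *Hadhb* (-0.00695), *Etfdh* (0.0235), *Cyp4a10* (-0.302) and *Fgf21* (-0.0973). With upper-quartile factors, they were *Eci2* (-0.00405) and *Cyp4a10* (-0.00442). Without the 2 livers of TMM factor under 0.8, they were *Cpt1a* (0.241), *Slc25a20* (-0.249), *Slc27a2* (0.00323), *Acadl* (-0.0334), *Acadm* (-0.109), *Acads* (-0.143), *Hadha* (0.0257), *Hadhb* (-0.0134), *Hadh* (-0.106), *Eci1* (-0.0388), *Decr1* (-0.025), *Etfa* (-0.0026), *Acaa1b* (0.0125), *Ech1* (-0.16), *Eci2* (-0.348), *Decr2* (-0.0269), *Cyp4a14* (0.0486) and *Fgf21* (-0.0883). With each liver left out, 307 of 344 values kept their direction, and the ranges that crossed 0 were -0.479 to 0.0593 for *Cpt1a*, -0.0619 to 0.214 for *Slc25a20*, -0.121 to 0.0638 for *Slc27a2*, -0.0663 to 0.252 for *Acadl*, -0.0205 to 0.325 for *Acadm*, -0.0558 to 0.181 for *Acads*, -0.0669 to 0.2 for *Hadhb*, -0.226 to 0.0687 for *Acaa2*, -0.141 to 0.0113 for *Etfdh*, -0.0865 to 0.208 for *Eci2*, -0.276 to 0.21 for *Cyp4a10*, -0.242 to 0.118 for *Cyp4a14*, -0.761 to 0.0998 for *Acot2*, -1.05 to 0.128 for *Acot3*, -0.51 to 0.134 for *Acot4*, -0.25 to 0.0191 for *Bdh1*, -0.151 to 0.64 for *Fgf21*, -0.142 to 0.0171 for *Angptl4* and -0.23 to 0.387 for *Vnn1*.

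Same-numbered livers are different animals, and their deviations from the genotype means correlated at 0.127, -0.613, 0.122 and -0.514 across genes. Values from so few pairs cannot tell whether same-numbered livers shared a litter or a preparation, which the labels do not give. With the replicate block the median of the members was -0.0529 and that of the other pathway genes -0.0172, and the block changed no call at an adjusted *P* of at most 0.05. At an unadjusted *P* under 0.05 the other pathway genes were 0 higher and 2 lower with the block. They were 4 higher and 4 lower without the block, where 9.79% of all genes lay under that *P*, 7.95% higher and 1.83% lower. With each liver left out they were 0 to 8 higher and 1 to 11 lower. The 11 lower, with 8 higher, came without LΔ*Rbfox2* liver 2, where 24.8% of all genes lay under it. Without LWT liver 2, 8 were higher and 5 lower, where 17.9% of all genes lay under it. Every member had at least 163 counts in each liver.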
